A study of Mus musculus with 19 samples.

Results

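The MHC class II presentation genes examined here were *H2-Aa*, *H2-Ab1*, *H2-Eb1*, *H2-DMa*, *H2-DMb1*, *Cd74* and *Ciita*. They were chosen by gene symbol, as 7 of the 24552 symbols kept in each of the 2 deposited tables, one for the cornea and one for the conjunctiva. RNA came from female C57BL/6J mice (labelled C57BL/6), which either had ad libitum feeding (AL) or received calorie-restricted feeding (CR), a smaller daily ration that was introduced in steps. There were 5 AL and 5 CR cornea libraries, made by the study's methods from scraped corneal epithelium, and 4 AL and 5 CR conjunctiva libraries from excised tissue. All titles carry 6M and 50W, which the labels do not spell out, and the series text calls the mice young whereas the methods describe adult animals. By the paper's account, the diets began at 6 to 7 months of age and lasted 4 months. In its cohort kept at Baylor College of Medicine, the CR chow was richer in vitamins and micronutrients than the AL chow. CR mice were fed daily, shortly before the dark phase. The titles do not name a cohort. Nothing in the labels says whether same-numbered libraries of different groups belong together, and p-values measure the spread between these libraries. The paper states that more than a single tissue was taken from each mouse, so cornea and conjunctiva libraries may share animals.

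MHC class II molecules are alpha and beta chain pairs that carry peptides from the endosome to the cell surface, where CD4 T cells read them. Dendritic cells, macrophages and B cells make them constantly, and many other cells, epithelium included, can be induced to make them by interferon gamma. The invariant chain Cd74 guards the empty pair on its way to the endosome, H2-DM exchanges the remnant of Cd74 for peptide, and Ciita is the coactivator that switches the whole set on. In the conjunctiva and cornea, resident antigen presenting cells are the usual source of class II protein. C57BL/6 mice make a single surface class II molecule, H2-A, because their H2-E alpha gene is defective.

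Class II promoters share a pair of elements, the X box and the Y box, on which the factors recruiting Ciita assemble. The 3 promoters below are shown because they hold both cores and belong to an alpha chain, a beta chain and a peptide editor chain. Each stretch is from the RefSeq promoter table (build GRCm38.p6, 250 bases before to 50 bases after the transcription start), is written 5′ to 3′ on the gene's strand, and has the X core (letters CTNGNAAC) and then the Y core (letters TGATTGG) in capitals.
H2-Aa, chr17:34287852-34287937, minus strand: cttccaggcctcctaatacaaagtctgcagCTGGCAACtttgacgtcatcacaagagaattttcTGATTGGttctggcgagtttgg
H2-Eb1, chr17:34305743-34305827, plus strand: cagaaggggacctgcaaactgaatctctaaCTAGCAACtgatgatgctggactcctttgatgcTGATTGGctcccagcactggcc
H2-DMb1, chr17:34153064-34153149, plus strand: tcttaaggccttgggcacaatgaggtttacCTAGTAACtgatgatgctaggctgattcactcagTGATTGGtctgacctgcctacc

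Between the 2 cores lay 26 bases in *H2-Aa*, 25 in *H2-Eb1* and 26 in *H2-DMb1*. The letters were chosen with these promoters in view. On both strands, 14.9% of the 27025 genes with a promoter in the table held the X core, 8.995% held the Y core, and 25 genes (0.0925%) held an X core followed by a Y core on one strand with 10 to 40 bases between them. *H2-Ob*, the beta chain of the H2-DM inhibitor H2-O, was among those 25. The 2 *H2-DMa* promoters in the table held neither core. *H2-Ab1*, *Cd74* and *Ciita* had no entry.

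The genes *H2-Aa*, *H2-Ab1*, *H2-Eb1*, *H2-DMa* and *H2-DMb1* lie on chromosome 17, within positions 34119693 to 34316674 of GRCm38.p6. *Cd74* lies on chromosome 18 and *Ciita* on chromosome 16. In the RefSeq annotation, *H2-DMa* overlaps *Brd2*, *Cd74* overlaps *Mir5107*, and *Ciita* overlaps *Dexi* and LOC115488669, and *H2-DMb1* has the near-identical neighbour *H2-DMb2*. How the authors' counting used strand is not known, so reads of those genes may be split or shared. Gene length was not corrected for, and levels are therefore compared between diets and libraries only.

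Cornea libraries held 10354125 to 14681223 counted reads and conjunctiva libraries 10726717 to 14433441. The corneal keratin *Krt12* averaged 306448 normalized counts in the AL cornea and 3006 in the AL conjunctiva. The goblet cell mucin *Muc5ac* averaged 12.9 and 4515. Other markers separated the tissues less: the conjunctival keratin *Krt13* averaged 27224 and 21937, and the corneal marker *Aldh3a1* 144737 and 34669. The 2 tables were scaled separately, so these levels are set side by side without a test. The library cornea AL 1 stood apart in secretory genes of the lacrimal gland, with 49559 summed normalized counts over 9 such genes. The other AL corneas held 109 to 1353 and the CR corneas 56.7 to 398, and AL 2, AL 3 and AL 5 were also above every CR cornea. Leaving out AL 1 left the count of changed class II genes in the cornea at 0.

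In the conjunctiva, all 7 class II genes had a mean normalized count (reads divided by the library's size factor) of 10 or more and had a lower fitted level under CR. *Cd74* passed the test, at 55.1% of its AL level on the log2(normalized count + 1) scale. The H2-E beta chain *H2-Eb1* and the H2-A chains *H2-Ab1* and *H2-Aa* were at 58.8%, 61.9% and 63.6% of AL without passing over all genes. A gene was called changed at an adjusted p under 0.05 (limma, Benjamini-Hochberg) with a fold over 1.5, which 1 of 7 members met, against 0.359% of the 13929 genes tested in either direction and 0.136% in the lower direction. At an unadjusted p under 0.05, 4 of 7 were lower, against a background of 4.87%. The fitted direction was lower for 7 of 7, where 52% of all genes tested were lower, and the median log2 change of the members was −0.69, where that of all genes was −0.02.

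*Cd74*, the invariant chain, had 1602, 1219, 1760 and 1419 normalized counts in the AL conjunctivas and 809, 793, 868, 820 and 807 in the CR conjunctivas. Every CR library was below every AL library, and the CR libraries lay close together. The means were 1500 ± 234 (SD, n = 4) and 819 ± 28.8 (SD, n = 5). The log2 change was −0.86 ± 0.14 (SE, adjusted p = 0.0074, limma). Complete separation of this kind was seen for 2 of the 7 members, against 1.95% of all genes tested.

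*H2-Eb1*, the beta chain of H2-E, was the other separated gene, with 3347, 1910, 2541 and 2610 normalized counts under AL and 1356, 1483, 1537, 1895 and 1298 under CR. Its gap was narrow, since AL 3 and CR 4 were nearly equal. The means were 2602 ± 588 and 1514 ± 234 (SD, n = 4 and 5), and the log2 change of −0.77 ± 0.17 (SE) had an adjusted p of 0.0659 by limma. It was therefore not called.

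*H2-Ab1*, the beta chain of H2-A, had 2181, 1683, 2167 and 1472 normalized counts under AL and 964, 1134, 1276, 1486 and 944 under CR. The groups overlapped through AL 5 and CR 4 alone, and 4 of 5 CR libraries were below every AL library. The log2 change was −0.69 ± 0.17 (SE, limma adjusted p = 0.106). *H2-Aa*, its alpha chain partner, had 4139, 2360, 3523 and 4320 normalized counts under AL and 1708, 2144, 2251, 2812 and 2328 under CR. Here AL 3 was low and CR 4 was the one CR library above it. The log2 change was −0.65 ± 0.19 (SE, limma adjusted p = 0.188).

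The peptide editor H2-DM had smaller fitted differences. *H2-DMa*, its alpha chain, had 181, 101, 145 and 153 normalized counts under AL and 86.7, 120, 111, 181 and 89.8 under CR, with CR 4 as high as the highest AL library. Its log2 change was −0.32 ± 0.27 (SE, limma adjusted p = 0.76), or −0.49 without CR 4 and −0.20 without AL 1. *H2-DMb1*, the beta chain, had 316, 232, 301 and 275 normalized counts under AL and 143, 199, 292, 213 and 239 under CR, and these ranges overlapped as well. Its log2 change was −0.40 ± 0.21 (SE, limma adjusted p = 0.577), or −0.26 without CR 1.

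*Ciita* was a low gene, with 42.6, 21.3, 25.8 and 23.6 normalized counts under AL and 9.74, 36.2, 11.6, 3.07 and 14.4 under CR. These rest on 19 to 53 reads per AL library and 3 to 38 reads per CR library. In 4 of 5 CR libraries the level was below every AL library, and CR 2 was above 3 of the 4 AL libraries. The log2 change was −1.17 ± 0.66 (SE, limma adjusted p = 0.608), so that an interval from −2.56 to 0.22 (95%) held both a large decrease and no change, and without CR 4 the change was −0.76. It was the largest fitted difference of the 7 members and the least precise of them.

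**Figure D1:**
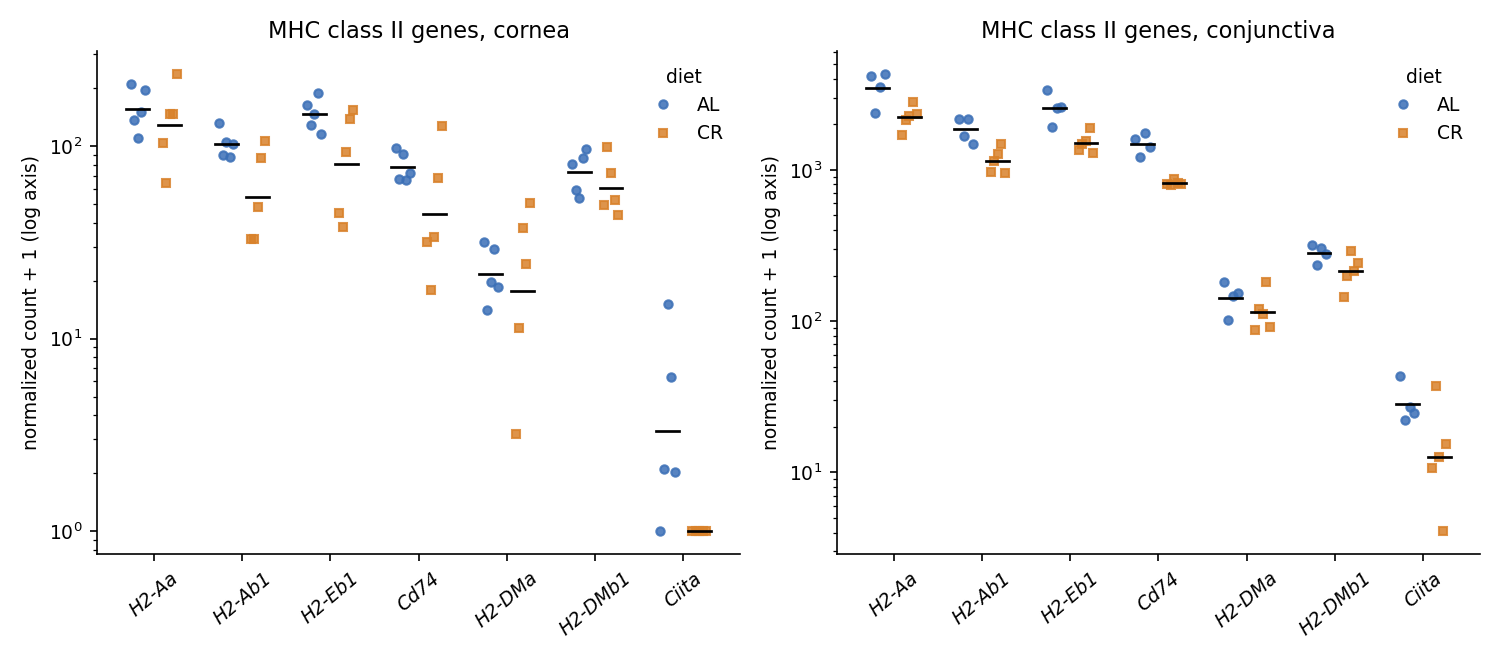
Normalized count + 1 of each MHC class II gene (log axis) in every cornea library (left, 5 AL and 5 CR) and conjunctiva library (right, 4 AL and 5 CR), with circles for AL, squares for CR and black lines for the mean on the log scale. The CR squares of Cd74 and H2-Eb1 in the conjunctiva lie below all AL circles, and in the cornea no gene of the 6 tested is separated.

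In the cornea, class II genes were a small part of the library, and the CR libraries were spread widely. *H2-Ab1*, *H2-Eb1* and *Cd74* were at 53.4%, 55.2% and 56.6% of their AL level on the fitted scale. *H2-Aa* and *H2-DMb1* were at 81.9% and 82.3%, and *H2-DMa* had no stable direction. No member was separated completely (0 of 6, against 1.89% of all genes tested), and none of these differences passed over all genes: 0 of 6 members tested were called by limma, against 1.22% of the 12278 genes tested in either direction and 0.472% in the lower direction. At an unadjusted p under 0.05, 2 of 6 (*H2-Ab1* and *H2-Eb1*) were lower, where the background was 9.55%. The fitted direction was lower for 6 of 6, *H2-DMa* included although its CR mean was the higher one (5 of 6 with quantile normalization or without CR 1), where 53.1% of all genes were lower, with a median log2 change of −0.56 against −0.03 for all genes.

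*H2-Ab1* had 130, 88.5, 104, 86.7 and 101 normalized counts in the AL corneas and 31.8, 32.04, 47.0, 85.8 and 105 in the CR corneas, given in the order CR 1, 2, 3, 4 and 7. CR 1, CR 2 and CR 3 were far below all AL libraries, CR 4 was just below them, and CR 7 was among them. The log2 change was −0.90 ± 0.33 (SE, limma adjusted p = 0.165). *H2-Eb1* had 162, 127, 145, 187 and 114 normalized counts under AL and 43.8, 36.8, 92.4, 137 and 153 under CR. The same 3 CR libraries were below every AL library, and the log2 change was −0.86 ± 0.35 (SE, limma adjusted p = 0.218).

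*Cd74* had 96.8, 66.6, 89.5, 65.4 and 71.1 normalized counts under AL and 30.7, 16.96, 32.6, 67.4 and 126.3 under CR. CR 7 was above all AL libraries, while CR 1, CR 2 and CR 3 were below them. The log2 change was −0.82 ± 0.42 (SE, limma adjusted p = 0.314), and it was −1.20 without CR 7 (adjusted p = 0.0943) and −0.50 without CR 2 (adjusted p = 0.548; 0.0635 to 0.909 over 23 alternatives). *H2-Aa* had 209, 135, 109, 149 and 194 normalized counts under AL and 103, 63.1, 145, 146 and 236 under CR. Its ranges overlapped broadly, with a log2 difference of −0.29 ± 0.29 (SE, limma adjusted p = 0.634), which was −0.04 without CR 2 and −0.51 without CR 7.

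*H2-DMb1* had 79.2, 57.9, 52.4, 85.8 and 95.8 normalized counts under AL and 48.2, 98.0, 71.2, 51.1 and 42.7 under CR. CR 2, the lowest cornea in *H2-Aa*, *H2-Eb1* and *Cd74*, had the highest *H2-DMb1* of all 10 corneas, and the log2 change was −0.28 ± 0.29 (SE, limma adjusted p = 0.646), or −0.46 without CR 2 and −0.16 without CR 7. *H2-DMa* had 30.8, 13.1, 18.6, 28.3 and 17.5 normalized counts under AL and 2.19, 10.4, 36.4, 23.5 and 49.2 under CR. Its lowest value, in CR 1, rests on 2 reads and set the sign of the fit: the mean was 21.7 ± 7.54 under AL and 24.3 ± 19.0 under CR (SD, n = 5 each), yet the log2 change was −0.30 ± 0.68 (SE, limma adjusted p = 0.846), and it was 0.31 without CR 1 and −0.68 without CR 7. No direction is given for *H2-DMa* in the cornea, since quantile normalization also turned it, to 0.05.

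*Ciita* in the cornea fell under the minimum mean of 10 and was not in the fit. The AL corneas held 0, 1, 13, 6 and 1 reads and the CR corneas 0 reads each. No fold is given, since most AL libraries were themselves at or under the 3 reads that a count of 0 allows in a library. A two-sided exact permutation test gave p = 0.0476, where 0.00794 was the smallest value the design allows. Of the 21 AL reads, 13 were in AL 3. Without AL 2, AL 3, AL 4 or AL 5 the exact permutation p was 0.0952, and without AL 1, the AL library at 0, it was 0.0159, the smallest that 4 against 5 allows.

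**Figure D2:**
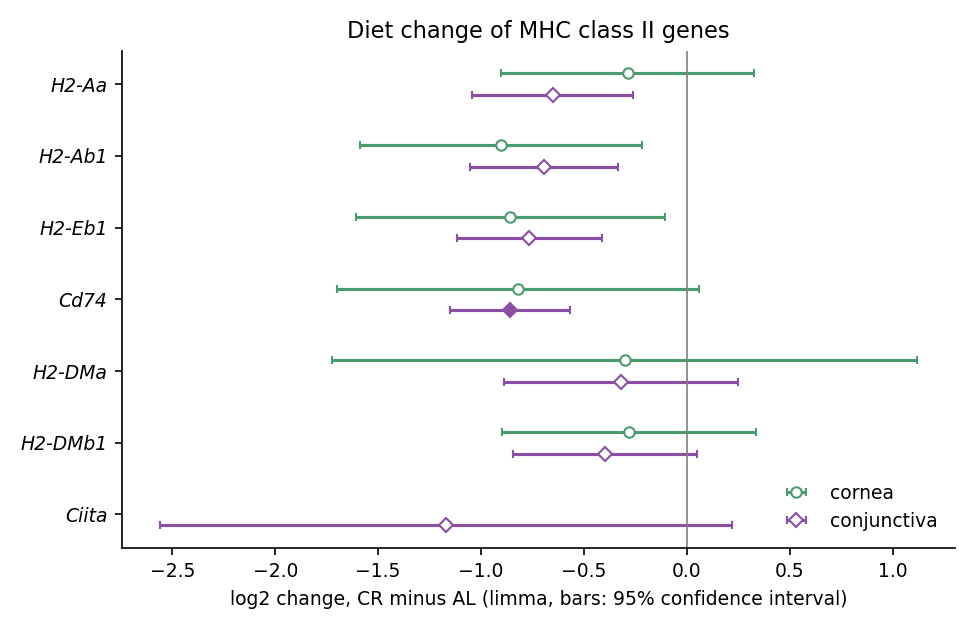
Log2 change (CR minus AL) of each MHC class II gene with its 95% confidence interval from limma, circles for the cornea (6 genes) and diamonds for the conjunctiva (7 genes), filled where the adjusted p was under 0.05. Cd74 in the conjunctiva, at −0.86, is the filled one, and all points lie left of 0, although that of H2-DMa in the cornea turned to 0.050 with quantile normalization.

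Reads of the 7 genes were also summed and scaled to a common library total (RPM). The sums were 1018, 625, 893 and 861 RPM in the AL conjunctivas and 421, 473, 550, 554 and 422 in the CR conjunctivas. In the corneas the sums were 60.0, 41.9, 47.1, 52.2 and 51.3 RPM under AL and 22.8, 22.2, 38.1, 44.4 and 59.5 under CR. The conjunctival groups were apart, and in the cornea CR 1, CR 2 and CR 3 were below all AL libraries while CR 4 and CR 7 were among them. The group means were 849 ± 164 and 484 ± 65.6 in the conjunctiva (SD, n = 4 and 5) and 50.5 ± 6.72 and 37.4 ± 15.7 in the cornea (SD, n = 5 each). The 2 tables were scaled separately, so levels of the tissues are set side by side without a test. In bulk RNA of this kind, fewer class II-bearing cells and less class II RNA per cell cannot be told apart.

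Whether the diet change differed between the tissues was tested gene by gene for the 6 members tested in both. None passed (0 of 6 at an adjusted p under 0.05, limma estimates, and 0 at an unadjusted p under 0.05), against backgrounds of 0.0168% and 7.48% of 11929 genes. The largest difference was that of *H2-Aa*, whose log2 change in the cornea exceeded that in the conjunctiva by 0.36 (95% interval −0.34 to 1.07). For *Cd74* the difference was 0.04 (−0.87 to 0.95) and for *H2-Ab1* −0.21 (−0.97 to 0.54). These intervals are wide, and they do not show that the tissues responded alike.

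Ratios within a library ask whether the parts of the class II system moved in proportion. They depend little on the library's scaling, except at low counts (*H2-DMa* in the cornea, *Ciita*), where the added count of 1 matters. Over 11 ratios (5 in the cornea and 6 in the conjunctiva), 0 passed after adjustment, by two-sided exact permutation tests whose smallest possible p is 0.00794 for corneal and 0.0159 for conjunctival ratios. The log2 ratio of *H2-Aa* to *H2-Ab1*, the 2 chains of H2-A, was 0.61 ± 0.33 in AL corneas and 1.23 ± 0.40 in CR corneas (SD, n = 5 each, exact p = 0.0238, adjusted p = 0.262). It ran from 0.07 to 0.93 under AL and from 0.76 to 1.67 under CR. In the conjunctiva the same ratio was 0.92 ± 0.46 under AL and 0.96 ± 0.20 under CR (SD, n = 4 and 5, exact p = 0.889).

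The log2 ratio of *H2-DMa* to *H2-Aa*, the editor relative to the molecule it loads, was −4.61 ± 0.14 in AL and −4.28 ± 0.27 in CR conjunctivas (SD, n = 4 and 5, exact p = 0.0635, adjusted p = 0.349). The CR libraries overlapped with AL through CR 5 only. The log2 ratios of *Cd74* and *H2-Eb1* to *H2-Ab1* in the conjunctiva differed between diets by −0.17 and −0.07, with exact p of 0.317 and 0.619. The coactivator relative to *H2-Ab1* differed by −0.48 (exact p = 0.571), with CR libraries from −8.51 to −4.93 around the AL range of −6.34 to −5.64.

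**Figure D3:**
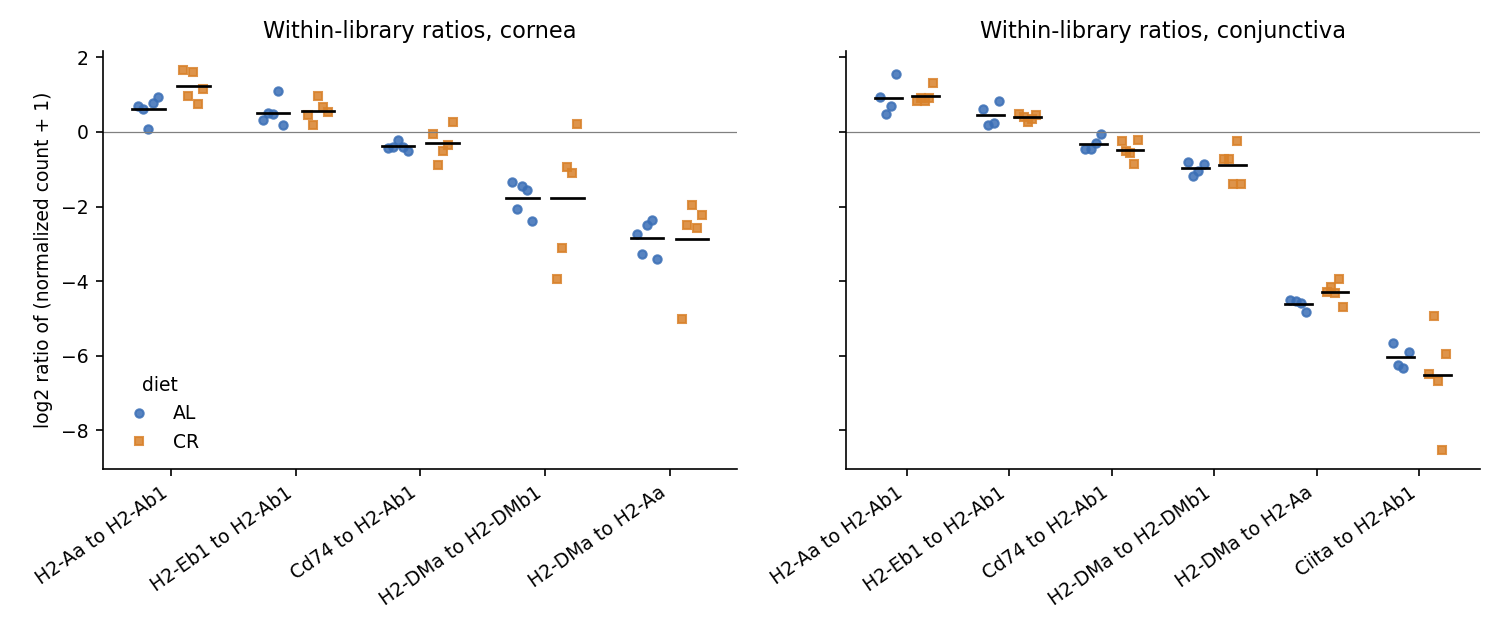
Log2 ratios between pairs of MHC class II genes within each library, for 5 pairs in the cornea (left) and 6 in the conjunctiva (right), with circles for AL, squares for CR and black lines for means. The ratio of H2-Aa to H2-Ab1 in the cornea had means of 0.61 under AL and 1.23 under CR, and the H2-DMa to H2-Aa ratio of one CR cornea lies at −5.03.

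Across libraries, after each diet's mean was removed, pairs of members had a median Pearson r of 0.74 in the cornea (15 pairs over 10 libraries, −0.67 to 0.94) and of 0.46 in the conjunctiva (21 pairs over 9 libraries, −0.25 to 0.93). These are descriptions over few libraries that share a size factor and a depth. In the cornea, *H2-Ab1* and *Cd74* had an r of 0.94 and *H2-Ab1* and *H2-Eb1* one of 0.89, while *H2-DMb1* went the other way, with −0.67 to *Cd74*. In the conjunctiva the closest pair was *H2-Eb1* and *H2-DMa* (0.93), and *Ciita* had an r of −0.25 to 0.11 with the other members.

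The genes most like the mean of the members were ranked among those whose mean normalized count was 50 or more. In the cornea (9709 genes) they were *Cotl1* (r = 0.95), *Timeless* (0.94), *Egr1* (0.94), *Arcn1* (0.94), *Trex2* (0.92), *1110008F13Rik* (0.91), *Arhgap42* (0.91) and *Cdipt* (0.91). In the conjunctiva (11282 genes) they were *Car3* (0.95), *Rusc1* (0.92), *Ldlrad3* (0.90), *Inha* (0.89), *Rapgef3* (0.89), *Nrep* (0.88), *Agtrap* (0.88) and *Pcca* (0.88). The 50 most alike genes of the cornea and the 50 of the conjunctiva shared 0 genes.

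The other class II genes were barely detected. *H2-Ea-ps*, the defective H2-E alpha gene, had 0 reads in all 19 libraries. *H2-DMb2*, the second H2-DM beta gene, had 0 reads in the cornea and 11 over all conjunctivas. *H2-Oa* and *H2-Ob*, the chains of the H2-DM inhibitor, totalled 65 and 43 reads over the 9 conjunctivas and 2 and 19 over the 10 corneas. *H2-Eb2* totalled 12 and 1. None of them reached the minimum mean.

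Lysosomal genes that trim Cd74 and cut antigen did not pass in either tissue (0 of 9 in each), with median log2 changes of 0.06 (cornea) and 0.03 (conjunctiva). At an unadjusted p under 0.05 by limma, 2 were higher in the cornea. These were *Lgmn* and *Sppl2a*, named after their values were seen (log2 changes 0.42 and 0.43). In the conjunctiva 1 was lower at that threshold, *Ctss*, where 4.87% of all genes tested were lower. *Ctss*, cathepsin S, the protease that removes Cd74 in antigen presenting cells, averaged 1067 ± 109 normalized counts in AL and 820 ± 165 in CR conjunctivas (SD, n = 4 and 5), a log2 difference of −0.40 ± 0.16 (SE, limma adjusted p = 0.422). In the cornea its log2 change was 0.06 ± 0.19 (SE, limma adjusted p = 0.904). *Ctsl*, *Ctsd* and *Ctsb*, cathepsins that degrade antigen, had log2 changes from −0.13 to 0.14 in the 2 tissues.

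The factors that bind class II promoters below Ciita were also called in neither tissue (0 of 7 in each, and 0 at an unadjusted p under 0.05). *Rfx5*, a subunit of the RFX complex on the X box, had log2 changes of 0.00 in the cornea and −0.08 in the conjunctiva. *Creb1*, *Nfyb* and *Nfyc*, which act on the X and Y boxes, lay between −0.18 and 0.20 in both tissues. Over the list, 3 of 7 were lower in the cornea (median 0.07) and 5 of 7 in the conjunctiva (median −0.18). Of all genes, 53.1% and 52% were lower. *Nfya* and *Rfxap*, named after their values were seen, had conjunctival log2 changes of −0.31 and −0.48 (limma adjusted p = 0.638 and 0.545).

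In the interferon gamma pathway, the main inducer of *Ciita*, 0 of 10 genes tested in the cornea and 0 of 11 in the conjunctiva passed. The fitted change was lower under CR for 7 of 10 and 9 of 11, where 53.1% and 52% of all genes were lower. The median log2 changes were −0.13 and −0.25. *Ifng* itself had 0 reads in every library. *Irf1*, a factor that activates *Ciita*, averaged 4977 ± 227 normalized counts in AL and 3987 ± 483 in CR conjunctivas (SD, n = 4 and 5), a log2 difference of −0.33 ± 0.13 (SE, limma adjusted p = 0.426). In the cornea *Irf1* averaged 6593 ± 375 and 5778 ± 607 (SD, n = 5 each), a log2 difference of −0.19 ± 0.10 (SE, limma adjusted p = 0.305). *Jak1*, *Irf2* and *Cmtm6*, the other abundant genes of the list, had log2 changes between −0.22 and 0.12.

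Genes outside the rule for names were singled out in that list after their values were seen. *Socs1*, a feedback inhibitor of the pathway, had fitted changes of opposite sign: the log2 change was 1.93 ± 0.53 in the cornea (SE, limma adjusted p = 0.0708) and −0.89 ± 0.35 in the conjunctiva (SE, limma adjusted p = 0.408). *Ifngr1*, a chain of the interferon gamma receptor, ran from 1082 to 1798 normalized counts in AL conjunctivas and from 986 to 1030 in CR conjunctivas, with no overlap (log2 change −0.41, limma adjusted p = 0.359). Complete separation with CR lower was seen in 1.95% of all genes tested in the conjunctiva.

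Class I presentation genes, which serve CD8 T cells and are made by nearly all cells, were called in neither tissue (0 of 12 in the cornea and 0 of 13 in the conjunctiva). At an unadjusted p under 0.05 by limma there were 1 and 0, the 1 being *Tap2*, which was higher in CR corneas (log2 change 0.34). Their median log2 change was 0.05 and −0.13. *B2m*, the class I light chain, had log2 changes of −0.05 in the cornea and −0.13 in the conjunctiva, *H2-D1* 0.05 and −0.05, and *H2-K1* 0.16 and −0.10. *Psmb8*, *Psmb9*, *Tap1* and *Tap2*, class I genes that lie among the class II genes on chromosome 17, had corneal log2 changes of −0.15 to 0.34 and conjunctival ones of −0.26 to 0.10. Of these 4 neighbours, 1 was lower in the cornea and 3 in the conjunctiva (53.1% and 52% of all genes), and 0 passed.

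Genes for class II turnover and costimulation were mostly too low to test. *March8*, a ubiquitin ligase that removes class II from the surface, had log2 changes of 0.20 in the cornea and −0.04 in the conjunctiva. *March1*, its counterpart in dendritic cells, had 0.11 ± 0.89 (SE) in the conjunctiva. *Cd274*, an inhibitory ligand for T cells, had 0.08 and −0.44, and *Cd86*, an activating one, averaged 23.9 ± 9.86 normalized counts in AL and 9.32 ± 3.57 in CR conjunctivas (SD, n = 4 and 5, limma adjusted p = 0.58). Of the tested genes of these 2 lists, 0 of 4 in the cornea and 0 of 6 in the conjunctiva passed, and 0 had an unadjusted p under 0.05.

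**Figure D4:**
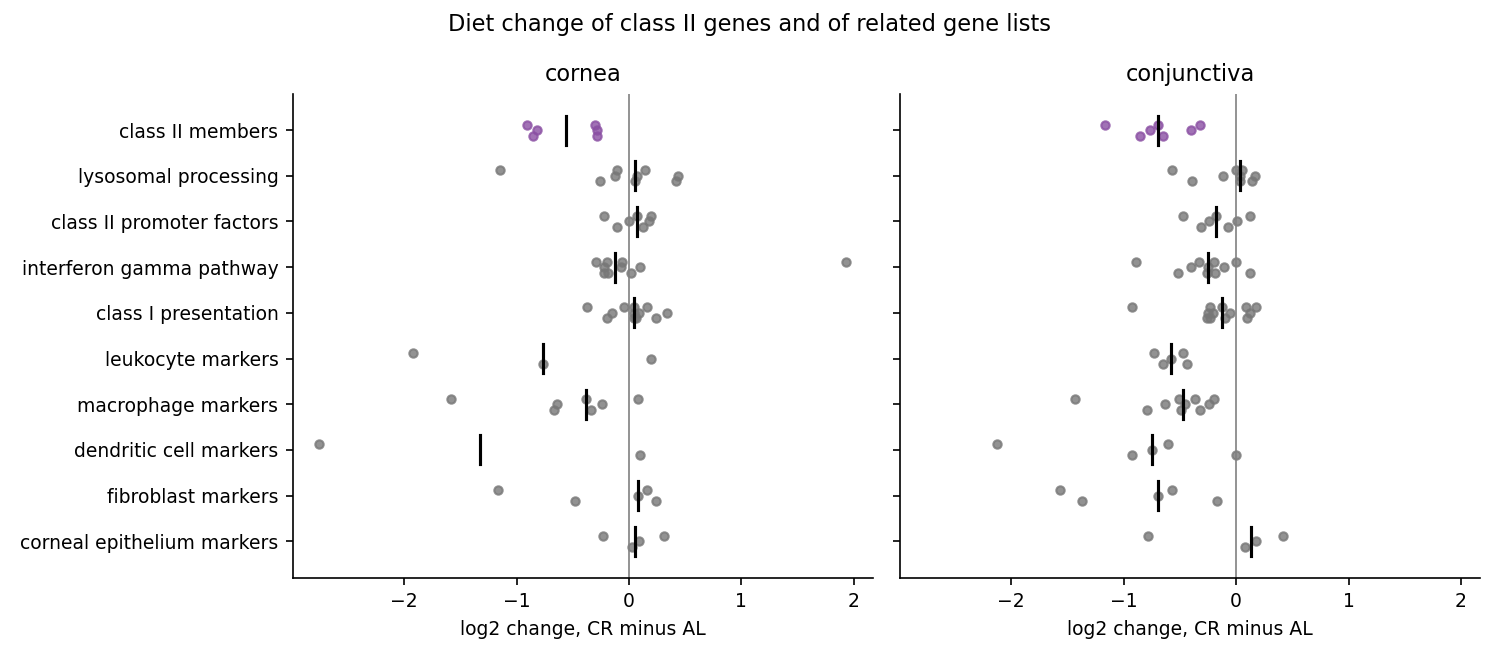
Log2 change (CR minus AL) of each tested gene in the MHC class II set (purple) and in 9 related gene lists (grey), with a black line at each list's median, in the cornea (left) and the conjunctiva (right). The class II medians are −0.56 and −0.69, and those of class I presentation are 0.05 and −0.13.

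Markers of the cells that carry class II also had lower fitted levels in the CR conjunctiva. Pan-leukocyte markers had a lower fitted level in 5 of 5 genes (median log2 change −0.58, 0 past the test), where 52% of all genes tested were lower. Their summed level ran from 1160 to 1478 normalized counts under AL and from 619 to 1095 under CR. *Ptprc*, the CD45 antigen, averaged 321 ± 43.1 and 244 ± 70.4 normalized counts (SD, n = 4 and 5, limma adjusted p = 0.54). *Laptm5*, a lysosomal protein of blood cells, averaged 565 ± 102 and 352 ± 119 (limma adjusted p = 0.229).

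Macrophage markers were lower in 10 of 10 conjunctival genes (median −0.47, 0 past the test, 5 at an unadjusted p under 0.05). Of all genes tested, 52% were lower, and 4.87% were lower at an unadjusted p under 0.05. The summed macrophage level was 4550 to 5289 normalized counts under AL and 3199 to 4095 under CR. *C1qa*, a complement subunit made by tissue macrophages, averaged 1025 ± 117 under AL and 665 ± 112 under CR (SD, n = 4 and 5). It had no overlap, as 1.95% of all genes tested, and a log2 difference of −0.63 ± 0.15 (SE, limma adjusted p = 0.103). *Mrc1*, the mannose receptor, had a log2 difference of −0.79 ± 0.21 (SE, limma adjusted p = 0.152). *Csf1r*, the receptor for the macrophage growth factor, had −0.20. The part of these cells in the class II values was not tested.

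Of the dendritic cell markers, *Cd209a*, a lectin of monocyte-derived and conventional type 2 dendritic cells, passed in the conjunctiva. It ran from 66.2 to 108 normalized counts under AL and from 12.3 to 41.0 under CR, a log2 difference of −2.13 ± 0.43 (SE, limma adjusted p = 0.0404). The call depended on single libraries, since it held in 2 of 9 fits that left one out (adjusted p 0.00884 to 0.21). It was kept without CR 3 or CR 5 and lost without each of the other 7. *Irf8*, a factor of type 1 dendritic cells that macrophages and B cells also make, averaged 413 ± 52.8 and 418 ± 81.8 (SD, n = 4 and 5), a log2 change of 0.00. *Itgax*, the CD11c integrin, had −0.60 ± 0.36 (SE, limma adjusted p = 0.632). Over the list 4 of 5 tested genes were lower (52% of all genes), with a summed level of 540 to 647 under AL and 393 to 649 under CR.

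In the cornea the same markers were sparse. *C1qa* passed there, with 42.2 to 80.8 normalized counts under AL and 11.1 to 31.7 under CR, a log2 difference of −1.58 ± 0.39 (SE, limma adjusted p = 0.0467). It was kept in 3 of 10 fits that left out a library, those without AL 4, CR 1 or CR 4, and the adjusted p ran from 0.0335 to 0.138. CR 7, the cornea with the most *Cd74*, was the one with the least *C1qa*. *C1qb* and *C1qc* of the same list, named after their values were seen, did not follow *C1qa*. They averaged 23.9 and 20.7 normalized counts in AL corneas and 21.5 and 22.6 in CR corneas (limma adjusted p = 0.836 and 0.821). Macrophage markers were lower in 6 of 7 tested genes (median −0.38) and pan-leukocyte markers in 2 of 3, where 53.1% of all genes tested were lower. *Ptprc* averaged 27.7 ± 14.1 and 11.3 ± 14.9 (SD, n = 5 each, limma adjusted p = 0.25). Summed levels overlapped, at 1452 to 1867 normalized counts under AL and 1183 to 1960 under CR for macrophages and 53.1 to 192 and 19.7 to 91.9 for leukocytes.

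Within a diet, these markers varied in how closely they ran with class II. After each diet's mean was removed, the r of *C1qa* with the mean of the members was 0.31 in the conjunctiva and −0.36 in the cornea. It was 0.05 and 0.75 for *Ptprc* and 0.77 and −0.67 for *Csf1r*. These are descriptions over 9 and 10 libraries with a shared size factor.

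Markers of B cells and T cells gave little signal, as did *Cd207* of the Langerhans cell list. *Pax5* had 0 reads in every library, and the B cell list summed to at most 15.4 normalized counts in any library. The T cell list summed to at most 47.2, and *Cd4* averaged 12.6 ± 8.42 and 7.99 ± 7.56 in AL and CR conjunctivas (SD, n = 4 and 5). *Cd207*, the langerin of Langerhans cells, had 5 reads over all corneas and 2 over all conjunctivas. *Epcam* of that list averaged 623 normalized counts in AL and 684 in CR corneas, and 1327 and 1446 in the conjunctivas. *Cd1d1* averaged 23.8 and 22.8 in AL and CR conjunctivas. In both tissues 0 genes of that list passed.

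Lists of other tissues also held genes that differed between diets. Fibroblast markers were lower in 5 of 5 conjunctival genes, where 52% of all genes tested were lower. Of these markers *Col1a1* and *Col3a1*, the fibrillar collagens, passed with log2 changes of −1.37 ± 0.20 and −1.57 ± 0.21 (SE, limma adjusted p = 0.00592 and 0.00337). Lacrimal gland genes were lower in 7 of 7 tested corneal genes, where 53.1% of all genes tested were lower. Except for *Car6* (log2 change −0.01), they averaged at most 1.40 normalized counts in CR corneas. They reached the minimum mean through AL libraries alone, so no conclusion is drawn from their shared direction. Of these 7, *Scgb2b24* passed (log2 change −6.97, limma adjusted p = 0.0388, kept in 3 of 10 fits without a library). In the conjunctiva the summed lacrimal level was 692 to 1337 normalized counts under AL and 88.1 to 757 under CR. With the lacrimal score of each library as a covariate, 0 of all genes were called in the conjunctiva. That score ran from 0.30 to 1.75 in AL and from −1.30 to −0.18 in CR conjunctivas. The fit can therefore hardly separate the score from diet, and no conclusion is drawn from the lost calls. In that fit the log2 changes of *Cd74* and *H2-DMb1* were −0.68 and −0.27, closer to 0 than without it. Those of *H2-Aa*, *H2-Ab1*, *H2-Eb1*, *H2-DMa* and *Ciita* were −0.83, −0.85, −1.10, −0.86 and −1.501, farther from 0, and the median of the 7 was −0.85. Each of the 7 had an adjusted p of 0.9998 (limma). Their part in the class II values was not tested further.

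Corneal epithelium markers did not pass in either tissue (0 of 4 in each), nor did conjunctival epithelium markers (0 of 3 and 0 of 4) or endothelial markers (0 of 1 and 0 of 3). In the cornea, 3 of 3 tested conjunctival markers had higher fitted levels under CR, where 53.1% of all genes were lower. Of these, *Krt13* had a log2 change of only 0.04. *Muc5ac* of the same list was too low to test and went the other way, averaging 12.9 normalized counts in AL and 2.95 in CR corneas. *Krt4* averaged 3360 ± 1105 in AL and 6628 ± 2617 in CR corneas (SD, n = 5 each). Its log2 change was 0.96 ± 0.29 (SE, limma adjusted p = 0.137), and its part in the class II values was not tested. The summed corneal epithelium level overlapped between diets, at 517923 to 636857 normalized counts in AL corneas and 450584 to 658601 in CR corneas.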

How the data were processed

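The authors sequenced RNA libraries, trimmed reads with cutadapt, aligned them to mm10 with STAR, counted them with HTSeq and scaled each tissue in DESeq2 by relative log expression; the submitters' processing notes name GRCm39 instead, and versions are not given in the sources used here. The deposited values are log2 of the count over the size factor, plus 1. They were turned back to normalized counts and whole reads (100% whole within 0.05 reads). The labels name a stranded mRNA kit and the methods an oligo(dT)-primed kit. Of 24557 features per table, 5 with a repeated symbol were left out, and 0 columns were unmapped.

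Diets were compared with limma 3.58.1 (statmod 1.5.0, R 4.3.3; trend and robust moderation) on log2(normalized count + 1) for genes averaging 10 or more, with Benjamini-Hochberg adjustment. Fold changes on this scale understate the change of low genes. Tissues were compared by subtracting their log2 changes and dividing by the combined error (Satterthwaite degrees of freedom). That comparison treated the tissues as independent, although their libraries may share animals. Ratios and *Ciita* in the cornea used two-sided exact permutation tests (scipy 1.17.1), adjusted over 11 ratios. The fit was tested on simulated data. No 2 libraries were identical.

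All 7 members were named with every value, and from each fixed list the genes past an adjusted p of 0.05 and up to 4 others with the highest mean; likeness took the 8 highest r per tissue. Members and lists were chosen with earlier results of these data known. A count of 0 allows up to 3 reads (2.27 to 3.37 normalized counts per library), for counting error only. Alternatives were pseudocounts of 0.5 and 10, other filters, quantile and trimmed-mean (TMM) scaling, array weights, voom on recovered reads, covariates, a replicate block, other thresholds and leaving out each library.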

Additional observations from a re-analysis of the deposited data

Results flagged for a closer look

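Of 50 groups of 4 or 5 libraries examined, 2 held a library far from the others of its group; chance alone flags about 1 group in 20. The log2 ratio of *H2-DMa* to *H2-Aa* was −5.03 in cornea CR 1, where the gap to the next library was 0.797 of the group's range; *H2-DMa* had 2 reads there. The log2 ratio of *H2-Aa* to *H2-Ab1* was 1.301 in conjunctiva CR 5, with a gap of 0.788 of the range.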

How the results depend on the processing

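In the conjunctiva the count of changed members was 1 (*Cd74*) in the fit reported. It was 2 (*H2-Eb1* and *Cd74*) with quantile normalization and at an adjusted p under 0.1, 4 with array weights (*H2-Aa*, *H2-Ab1*, *H2-Eb1* and *Cd74*; 149 of all genes were then called, against 50), and 0 with the lacrimal gland score as a covariate, where 0 of all genes were called. The lacrimal score did not overlap between the diets in the conjunctiva, so that fit can hardly separate it from diet. With the replicate block the count was 0 (10 of all genes called), and *Cd74* had a log2 change of −0.85 with a limma adjusted p of 0.112. Titles share numbers, but same-numbered AL and CR libraries deviated together at r from −0.30 to 0.29, so the numbers were not taken as pairs. Cornea and conjunctiva libraries of the same diet and number deviated together at r from −0.42 to 0.14. Leaving out each library gave counts from 1 to 2, the 2 being reached without AL 3 or without CR 3. In the cornea the count was 0 in the fit reported and without each library, and 1 with array weights (*H2-Ab1*; 705 of all genes called, against 150). The replicate block left the corneal count at 0 (46 of all genes called) and the count of tissue differences at 0. *H2-DMa* in the cornea turned to 0.050 with quantile normalization and to 0.31 without CR 1. The log2 change of *Cd74* in the conjunctiva ranged from −0.95 to −0.68 over 22 alternatives (adjusted p 0.00102 to 0.9998), and the causes of these shifts were not tested. Of the other alternatives, 646 values of single genes and ratios kept their side of the threshold and 81 counts stayed within 1.5 times. Array weights and quantile scaling moved the calls of *H2-Eb1* and, with weights, those of *H2-Aa* and *H2-Ab1*. Depth limits *Ciita* (0 to 53 reads per library) and *H2-DMa* in the cornea (2 to 53 reads).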
